A study of Mus musculus with 2 samples.

Results

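The muscarinic acetylcholine receptors, encoded by Chrm1 to Chrm5, were examined in RNA precipitated with tagged ribosomes from Drd2-expressing cells. The tissue was medial prefrontal cortex, taken from adult mice. Members were the probe sets whose platform annotation names a single gene, that gene being 1 of these 5. This gave 6 probe sets of 34472 on the array: 2 for Chrm1 and 1 for each of the other four genes. All 5 genes were therefore measured.

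The mice are labelled D2Cre::RiboTag. In RiboTag animals, cells that carry active Cre incorporate a haemagglutinin-tagged ribosomal protein, and here a Cre driver for Drd2, the gene of the dopamine D2 receptor, sets which cells do so. The tag marks every cell in which that driver was active, and the labels call the captured cells neurons. Tissue of 5 adult mice was pooled, tagged ribosomes were precipitated, and their RNA was hybridised to 2 arrays labelled as technical replicates. There was 1 group, no treatment and no genotype or tissue to compare with, and neither input RNA nor a mock precipitation was analysed here. Values are therefore log2 signals, given per array or as the mean ± SD of the 2 arrays, with no p-value. The SD covers technical error only, and the number of arrays limits the precision.

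Muscarinic receptors are G-protein-coupled receptors for acetylcholine, which in cortex comes mainly from basal forebrain axons. Chrm1, Chrm3 and Chrm5 encode receptors that couple to Gq, which activates phospholipase C, releases calcium from internal stores and closes the potassium channels of the M current. Chrm2 and Chrm4 encode receptors that couple to Gi and Go, which inhibit adenylyl cyclase and open GIRK potassium channels through G protein beta and gamma subunits. In forebrain, the products of Chrm1 and Chrm4 are known as the main postsynaptic receptors of their classes, the product of Chrm2 also serves as an autoreceptor on cholinergic terminals, and that of Chrm5 is known from midbrain dopamine neurons.

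Because no control sample was at hand, background was set within each array, as the 95th percentile of the signals of 1394 olfactory and vomeronasal receptor genes, whose probe sets were averaged where a gene had several. These receptors are known from the sensory cells of the nose, and the threshold lay at 5.61 on array 1 and 5.66 on array 2. A probe set counted as above background when it exceeded the threshold on both arrays. Of the 6 muscarinic probe sets, 5 were above background, from 4 of the 5 genes, and Chrm5 was the exception. Over all 23521 probe sets that name 1 gene, 60.1% were above background, so a call at this threshold is common on these arrays, and it was also exceeded by 9 of 32 genes typical of muscle, liver or testis. A stricter line, at the 99th percentile of these genes, lay at 6.64 on both arrays. There 5 of the 6 probe sets still passed, against 44.9% of all. At a threshold taken from these 32 genes of other tissues (their 95th percentile), called the out-of-tissue threshold here and lying at 7.26 on array 1 and 7.06 on array 2, 4 of the 6 passed, against 38.2% of all. The same 4 genes had a passing probe set at each of these thresholds.

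**Figure D1:**
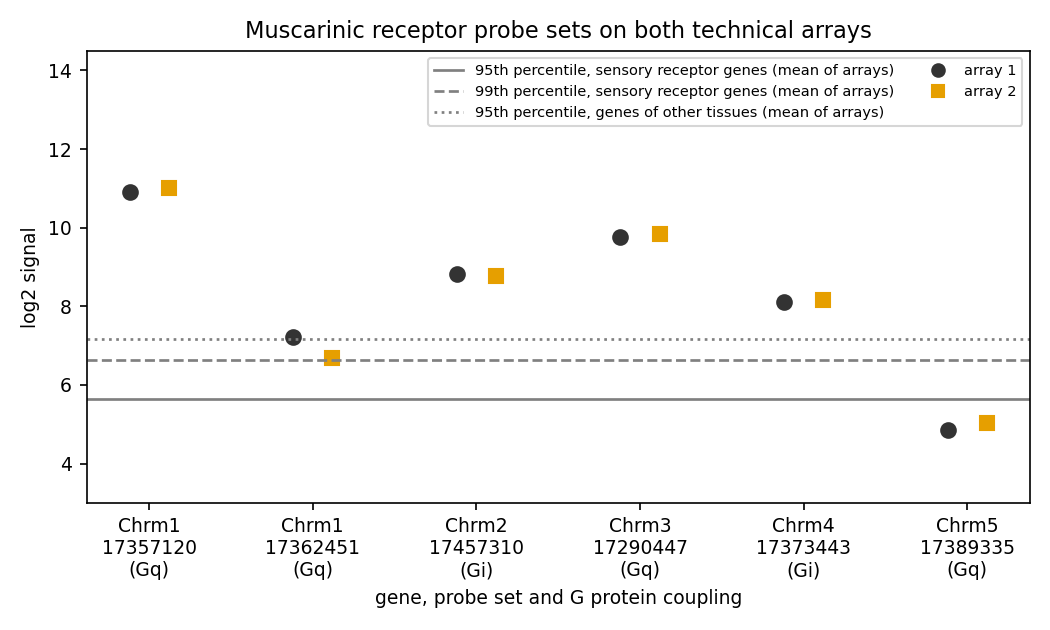
Log2 signal (vertical axis) of each muscarinic probe set (horizontal axis, with gene, probe set number and G protein class) on array 1 (circles) and array 2 (squares). Horizontal lines are the 3 thresholds, averaged over the arrays. Chrm5 lies under all of them and the lower Chrm1 probe set lies near the upper ones, at 7.23 and 6.68.

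Among the Gq-coupled receptors, Chrm1 gave the widest range of readings, because its probe sets stood far apart. Probe set 17357120 read 10.91 on array 1 and 11.02 on array 2, a mean of 10.965 ± 0.08. This was 5.33 log2 units over background on average. Of the 1405 single probe sets of the sensory receptor genes, 1 read higher on each array, a probe set of Vmn1r233 with a mean of 11.445 whose partner probe set averaged 3.375. Probe set 17362451 of the same gene read 7.23 on array 1 and 6.68 on array 2, a mean of 6.955 ± 0.39. It was over background by 1.62 on array 1 and 1.02 on array 2, with 3 and 14 sensory receptor probe sets above it. It passed the 99th percentile by 0.59 on array 1 but by only 0.04 on array 2, and it lay under the out-of-tissue threshold by 0.03 and 0.38 units. The mean of both probe sets, 8.96, corresponds to neither reading.

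Chrm3, the Gq-coupled receptor also known from smooth muscle and glands, was measured by probe set 17290447. It read 9.77 on array 1 and 9.83 on array 2, a mean of 9.80 ± 0.04. Both arrays placed it 4.16 to 4.17 log2 units over background and 2.51 and 2.77 units over the out-of-tissue threshold. On each array 1 of the 1405 sensory receptor probe sets read higher.

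Chrm5 was the only muscarinic gene not above background. Its probe set 17389335 read 4.86 on array 1 and 5.02 on array 2, a mean of 4.94 ± 0.11, which is 0.75 and 0.64 log2 units under the respective thresholds. On array 1, 193 of the 1405 sensory receptor probe sets (13.7%) read higher, and on array 2, 168 of them (11.96%). Chrm5 RNA was thus not detectable by this probe set, which does not show that it was absent.

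Both Gi-coupled receptor genes were above background on both arrays. Chrm2, through probe set 17457310, read 8.82 on array 1 and 8.77 on array 2, a mean of 8.795 ± 0.04. It stood 3.21 and 3.11 log2 units over background and 1.56 and 1.71 over the out-of-tissue threshold, with 1 sensory receptor probe set above it on each array. Chrm4, through probe set 17373443, read 8.10 on array 1 and 8.16 on array 2, a mean of 8.13 ± 0.04. It stood 2.49 and 2.50 units over background and 0.84 and 1.10 over the out-of-tissue threshold, and 2 sensory receptor probe sets read higher on each array. The above-background genes thus comprised 2 of the 3 Gq-coupled and 2 of the 2 Gi-coupled receptors. Hybridisation strength differs between probe sets, so these signals give no order of abundance among the receptors. With 1 condition there is also no order of levels across conditions. In bulk RNA of this kind, fewer cells of a type and less RNA per cell cannot be told apart, so the signals do not show how many of the captured cells carry each receptor.

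The arrays repeated each other closely for most of these probe sets. The absolute difference between arrays had a median of 0.09 log2 units over the 6 members and 0.13 over all 34472 probe sets. It was 0.05 for Chrm2, 0.06 for Chrm3 and Chrm4, 0.11 for the higher Chrm1 probe set and 0.16 for Chrm5. Array 2 was higher for 4 of the members and lower for 2. Spread depends on signal, so each difference was also set beside those of all probe sets with a mean signal within 0.25 log2 units. For Chrm2, 68.1% of 1499 such probe sets differed more, for Chrm3 57.1% of 1071, for Chrm4 64.2% of 1662, for Chrm5 53.7% of 3363 and for the higher Chrm1 probe set 25.3% of 486. The lower Chrm1 probe set was the exception. It fell by 0.55 from array 1 to array 2, and only 23 of 1926 probe sets of similar signal (1.19%) differed more, where the SD of the difference was 0.19.

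**Figure D2:**
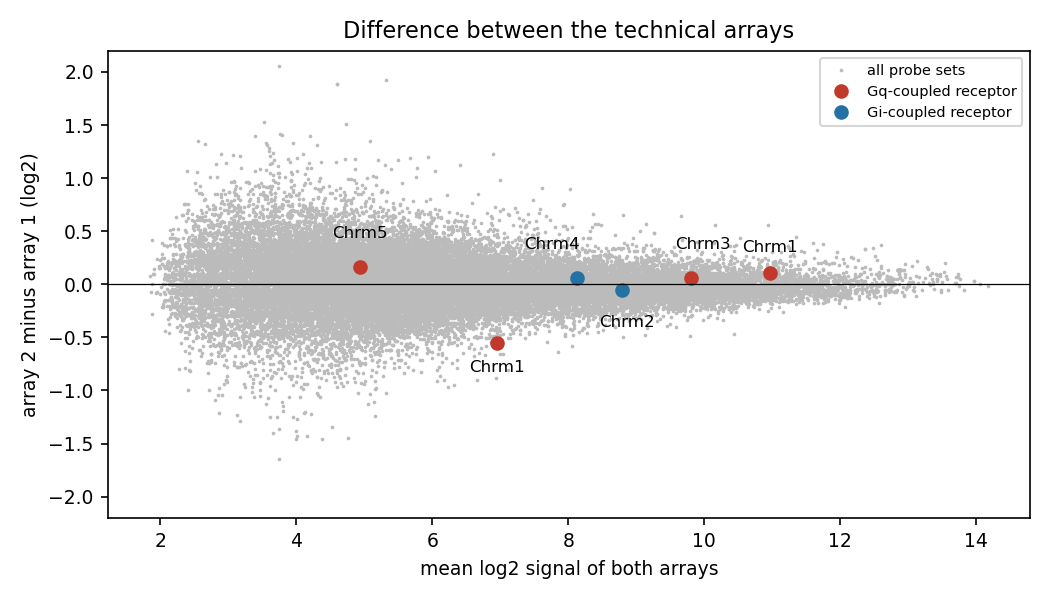
Difference between the arrays (array 2 minus array 1, log2, vertical axis) against the mean log2 signal (horizontal axis) for all 34472 probe sets (grey) and the muscarinic members (red, Gq-coupled; blue, Gi-coupled). The lower Chrm1 probe set, at a difference of -0.55, lies at the edge of the cloud, and the other 5 members lie within 0.16 of 0.

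The separation of the Chrm1 probe sets, 4.01 log2 units between their means, was compared with that of other genes. Of 968 genes with exactly 2 probe sets, Chrm1 included, the median separation was 2.08 units. In 159 genes (16.4%), again counting Chrm1, it was at least that of Chrm1. Among the 150 of these genes whose higher probe set read within 1 unit of the higher Chrm1 probe set, the median was 3.92 units. Of them, 69 (46.0%) were separated at least as far, and both counts include Chrm1. A gap of this size was therefore common beside a probe set that read as high.

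The probe set numbers of this array follow the chromosomes strand by strand. Where the neighbours of a probe set on both sides in number order lay on 1 strand, 96.7% of 16121 probe sets had their own gene on that strand too, by the gene starts of RefSeq (GRCm38.p6). The higher Chrm1 probe set stood among plus-strand genes (10 of its 10 nearest named neighbours, including Slc22a8, Slc22a6 and Snhg1). The lower one stood among minus-strand genes (10 of 10, including Slc3a2, Tmem179b and Gng3). By this order the probe sets of Chrm1 belong to opposite runs, and the strand of Chrm1 itself was not in the table used. The probe sets of Chrm2 and Chrm4, both plus-strand genes, stood in plus-strand runs (10 and 9 of 10 neighbours), and those of Chrm3 and Chrm5, both minus-strand genes, in minus-strand runs (9 and 8 of 10).

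Other genes with probe sets in opposite runs were examined for how their readings differ. There were 515 genes of this kind with a known strand, a run being called where at least 8 of 10 neighbours shared a strand. The probe set in the run of the gene's own strand was the higher one in 424 of them (82.3%), with a median of 7.74 against 5.77 for the other and a median difference of 2.09 log2 units. The own-strand probe set was higher by at least the 4.01 units that separate the Chrm1 probe sets in 74 genes (14.4%). The probe set of the other run still exceeded the mean background threshold in 281 genes (54.6%), and it read at least as high as the lower Chrm1 probe set in 82 (15.9%). In a further 152 genes both probe sets stood in the same run. Wide gaps occurred there too, such as 9.34 units in Phyhipl and 7.985 in Tcp1, beside narrow ones such as 0.055 in Cdc5l. A gap as wide as that of Chrm1 is thus not particular to opposite runs, and how often it occurs within the same run was not counted. The comparison of opposite runs was chosen after the values were seen. Since the strand of Chrm1 was not in the table, which of its probe sets is the own-strand one was not determined here. Whether the lower Chrm1 probe set reads RNA of the opposite strand was not tested.

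**Figure D3:**
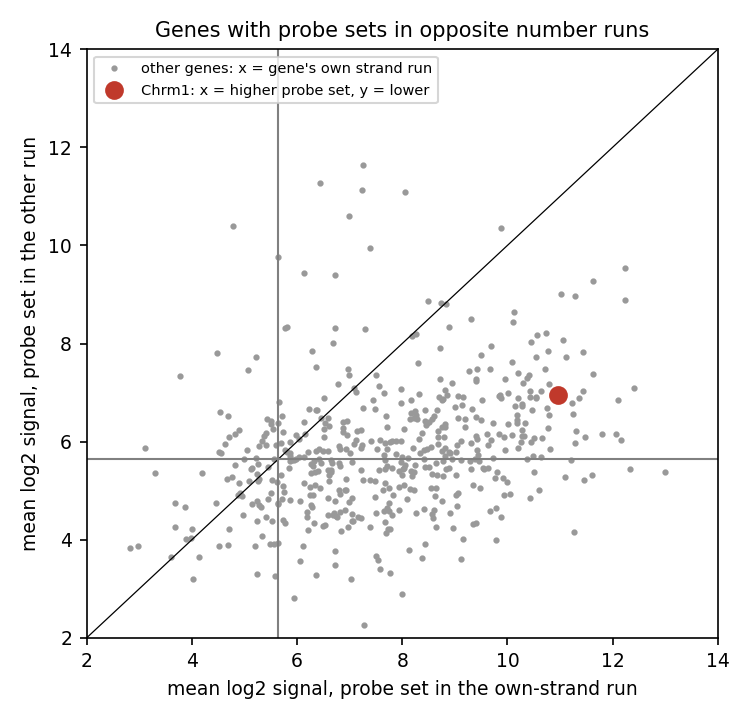
Mean log2 signal of the probe set in the run of the gene's own strand (horizontal axis) and of the probe set in the other run (vertical axis) for 515 genes (grey). Chrm1 (red) is placed with its higher probe set on the horizontal axis, since its strand was not in the table. Grey lines mark background, the diagonal marks equal signals, and 424 of the 515 genes lie below the diagonal. Chrm1 lies below it because of how it was placed.

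The gene starts of the muscarinic family were also compared, since the members differ in sequence there. RefSeq windows of GRCm38.p6, each 300 bases long with 250 before and 50 after the annotated start, were at hand for 4 of the 5 genes, all but Chrm1. CG dinucleotides, which cluster in the CpG islands of many gene starts, were counted in each window (the motif CG reads the same on both strands). Chrm4 held the most with 30 and Chrm5 the fewest with 3, and these 2 windows are shown because they lie at the ends of the family's range, with every CG in capitals. The Chrm4 window lies at chr2:91921939-91922238 on the plus strand and the Chrm5 window at chr2:112480768-112481067 on the minus strand, each printed 5′ to 3′ in the direction of the gene.
Chrm4: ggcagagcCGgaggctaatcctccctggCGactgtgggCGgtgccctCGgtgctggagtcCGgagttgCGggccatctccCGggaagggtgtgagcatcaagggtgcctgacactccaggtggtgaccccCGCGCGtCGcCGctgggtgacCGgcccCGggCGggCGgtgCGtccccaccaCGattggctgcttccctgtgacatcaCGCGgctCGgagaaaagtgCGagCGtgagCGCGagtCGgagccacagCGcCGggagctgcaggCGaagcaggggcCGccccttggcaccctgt
Chrm5: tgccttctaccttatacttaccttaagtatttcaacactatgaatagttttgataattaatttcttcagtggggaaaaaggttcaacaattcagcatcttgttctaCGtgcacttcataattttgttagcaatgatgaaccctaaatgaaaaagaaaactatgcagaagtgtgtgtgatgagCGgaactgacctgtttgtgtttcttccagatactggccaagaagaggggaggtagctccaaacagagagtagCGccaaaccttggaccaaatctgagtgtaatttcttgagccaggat
The difference is visible by eye, with runs of capitals through the Chrm4 window and 3 isolated pairs in that of Chrm5. Of all 32851 start windows, 11.7% held at least as many CG as Chrm4 and 31.4% held no more than Chrm5, around a median of 7. Chrm2 held 16 and Chrm3 held 11, and 33.0% and 41.4% of windows held at least as many. The GC content was 70.7% for Chrm4, 57.3% for Chrm3, 52.7% for Chrm2 and 39.0% for Chrm5. The GC box GGGCGG, searched on both strands, occurred 4 times in the Chrm4 window, once in that of Chrm2 and not in those of Chrm3 and Chrm5, and 35.7% of all windows held it. The TATA motif TATAAA, searched on both strands, was found in none of the 4 windows and in 13.6% of all.

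Across all genes the CG count went with being above background. Of 15807 named genes with a window, sensory receptor genes left out, 66.1% were above background. The share was 21.0% of 3373 genes with 0 to 4 CG, the class of Chrm5, and 45.7% of 2269 genes with 5 to 9. It was 77.4% of 3519 genes with 10 to 19, the class of Chrm2 and Chrm3, and 90.0% of 6646 genes with 20 or more, the class of Chrm4. The 4 receptors with a window fell on the side of background that most genes of their class did, which with so few genes is no evidence for the pattern. A gene was counted by its window with the most CG, the genes are not independent, and no test was made.

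**Figure D4:**
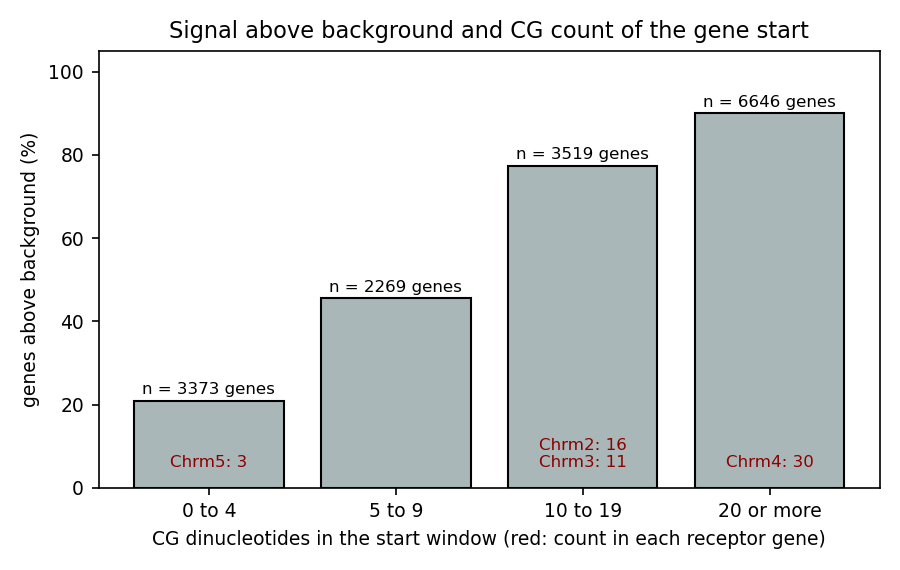
Share of named genes above background (vertical axis, percent) by the number of CG dinucleotides in the start window (horizontal axis). Numbers over the bars are genes, and the red text gives each muscarinic gene's own count. The share goes from 21.0% to 90.0%, with Chrm5 in the lowest class and Chrm4 in the highest.

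The genes that carry muscarinic signals onward were mostly above background. Counts for these lists average the probe sets of a gene. By that measure, 60.3% of all 22180 named genes were above background, 45.0% passed the 99th percentile of the sensory receptors and 38.2% passed the out-of-tissue threshold. Of 12 measured genes of the Gq pathway, 10 passed, with a list median of 7.95 log2 signal against 6.36 over all named genes. The G protein alpha subunits Gnaq and Gna11 read 11.10 ± 0.01 and 11.22 ± 0.04, whereas Gna14 read 5.84 ± 0.13, only just over the threshold. The phospholipase C gene Plcb2 (5.78 and 5.52) and the inositol trisphosphate receptor gene Itpr3 (5.505 and 5.815) each passed on 1 array only. Of the 12, 6 exceeded the out-of-tissue threshold.

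Channels that muscarinic receptors act on were above background in 5 of 7 measured cases, beside 60.3% of all named genes. Of the M-current family, Kcnq3, a subunit of the neuronal M channel, read 10.62 ± 0.04, and Kcnq5 averaged 8.33 over probe sets at 5.85 and 10.82. Kcnq1, known from heart and epithelia, read 5.30 ± 0.06 and did not pass. Of the GIRK family, Kcnj6 read 8.28 ± 0.05 and Kcnj3 averaged 8.56 over probe sets at 6.64 and 10.48. Kcnj9 (10.165 ± 0.04, outside the rule for named genes) completed the 3 that passed, while Kcnj5, the cardiac partner subunit, read 5.64 and 5.41, over the threshold on array 1 only.

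For the Gi and Go pathway the list held only G protein subunits, 9 genes of which 8 were measured (not Gnb2). All 8 were above background and above the out-of-tissue threshold, with a median of 10.65. Of all named genes, 60.3% and 38.2% passed these thresholds. The alpha subunits Gnai1, Gnai2 and Gnai3 read 11.22 ± 0.02, 10.08 ± 0.13 and 8.19 ± 0.02. Of the genes that end receptor signalling, 9 of 10 passed at both thresholds, with a median of 8.96. The receptor kinases Grk3 and Grk5 read 9.10 ± 0.04 and 7.48 ± 0.02, and Grk4, known from testis, did not pass at 4.76 ± 0.06. These pathways serve many other receptors too, so their signals are not particular to muscarinic signalling.

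Genes that make and handle the ligand were on both sides of background. Background was exceeded by 5 of 7 measured genes, beside 60.3% of all named genes, the list median was 6.12 beside 6.36 over all, and 2 genes passed the out-of-tissue threshold. Chat, the enzyme that makes acetylcholine, read 6.02 ± 0.02, over background but under the stricter line of 6.64. The vesicular transporter Slc18a3 read 5.81 and 5.65, over the threshold on array 1 only, and the choline transporter Slc5a7 read 4.93 ± 0.02 and was not above it. The 2 genes past the out-of-tissue threshold, named after their values were seen, were Ache, which breaks acetylcholine down, at 7.99 ± 0.16 and the choline transporter-like Slc44a1 at 8.52 ± 0.07. Of 6 measured factors of cholinergic neurons, 2 passed, with a median of 5.53, and 0 passed the 99th percentile. Lhx8, Isl1 and Gbx1 were not above background at 5.11 ± 0.26, 5.42 ± 0.11 and 4.59 ± 0.07. The members on the other side were Gbx2, which averaged 5.77 ± 0.01 over probe sets at 5.6 and 5.94, and the neurotrophin receptor gene Ngfr at 5.91 ± 0.33.

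The ionotropic receptors for the same ligand were divided as well. Of 11 neuronal nicotinic subunit genes, 6 passed, a share near the 60.3% of all named genes, with a median of 5.81, and 3 passed the out-of-tissue threshold. Chrna2, Chrna3 and Chrna4 read 6.77 ± 0.14, 5.81 ± 0.04 and 8.91 ± 0.06. The 5 that did not pass, Chrna6, Chrna9, Chrna10, Chrnb3 and Chrnb4, had means between 4.985 and 5.52. Of the 5 subunits of the muscle receptor, which serve here as receptors of another tissue, 1 passed: Chrng, at 5.93 ± 0.11. Chrna1, Chrnb1 and Chrnd were not above background at 5.30 ± 0.07, 4.53 ± 0.09 and 4.97 ± 0.13.

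**Figure D5:**
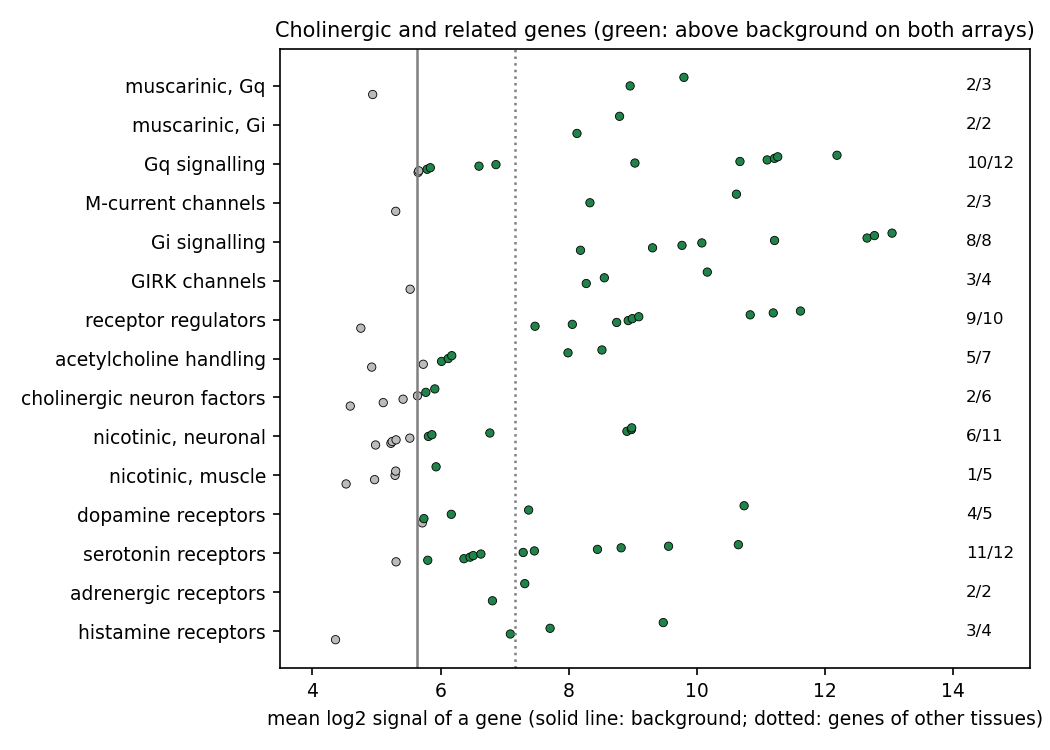
Mean log2 signal of each measured gene (points, horizontal axis) by gene list (vertical axis), green where above background on both arrays. The solid line is background, the dotted line the out-of-tissue threshold, and the numbers at the right give genes above background of genes measured, 2 of 3 for the Gq-coupled and 2 of 2 for the Gi-coupled muscarinic receptors.

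Set beside the other amine receptors, the muscarinic family had 4 of 5 genes above background by gene means and 4 of 5 above the out-of-tissue threshold. The dopamine receptors had 4 of 5 and 2 of 5, the serotonin G-protein-coupled receptors 11 of 12 and 6 of 12, and the histamine receptors 3 of 4 and 2 of 4. Of all named genes, 60.3% and 38.2% passed these thresholds. Beside Drd2, Drd1 read 7.38 ± 0.02. The first serotonin receptors of the list, Htr1a, Htr1b and Htr1d, read 7.29 ± 0.18, 9.56 ± 0.10 and 5.80 ± 0.08. The histamine receptors Hrh1 and Hrh2 read 7.71 ± 0.04 and 7.09 ± 0.04, and Hrh3 averaged 9.48 ± 0.04 over probe sets at 8.22 and 10.735. The members on the other side of background from their family were Drd3 (5.61 and 5.82), Htr2b at 5.31 ± 0.09 and Hrh4 at 4.36 ± 0.14. Of the adrenergic receptors only 2 were measured here, Adra1b at 7.32 ± 0.13 and Adra2c at 6.81 ± 0.03, and both were above background. With families this small and no test made, these counts do not show that the families differ.

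Cell type markers were read against the same thresholds. Without input RNA or a mock precipitation to compare with, these readings cannot show whether Drd2-expressing cells were enriched. Drd2 read 10.78 and 10.70, which is 5.10 log2 units over background on average. All 6 neuronal markers, all 5 measured excitatory cortical markers and all 7 GABAergic markers passed every threshold, with means from 8.23 to 13.71. Examples are Rbfox3 at 11.62 ± 0.05, Snap25 at 13.70 ± 0.01, Slc17a7 at 12.30 ± 0.03, Camk2a at 12.40 ± 0.02, Gad1 at 8.85 ± 0.09 and Gad2 at 11.50 ± 0.01. All 5 measured striatal projection neuron markers passed too, between 8.50 and 12.11, among them Penk at 12.11 ± 0.02 and Gpr6 at 8.90 ± 0.01. Most glial and vascular markers were above background, and fewer were above the out-of-tissue threshold. Over all named genes, 60.3% were above background and 38.2% above the out-of-tissue threshold. Above the latter were 3 of 5 markers for astrocytes, 3 of 4 for oligodendrocytes and 1 of 3 for their precursors. For microglia and for vessels it was 2 of 6 each. All 5 astrocyte markers lay between 6.67 and 8.64 (Gfap 6.67 ± 0.02, Aqp4 6.93 ± 0.01), all 4 measured oligodendrocyte markers between 7.15 and 9.39 (Mbp 9.16 ± 0.04, Mog 7.15 ± 0.03) and all 3 precursor markers between 6.57 and 7.59 (Pdgfra 7.59 ± 0.01, Cspg4 6.57 ± 0.06). All 6 microglial markers lay between 5.85 and 7.84 (Cx3cr1 7.84 ± 0.11, Tmem119 6.58 ± 0.06), and 5 of 6 vessel markers passed, between 6.04 and 8.04 (Flt1 7.16 ± 0.14, Pecam1 6.68 ± 0.11), with Ly6c1 at 4.37 ± 0.32 not above background. Excitatory neurons, interneurons and astrocytes can each carry muscarinic receptors, and the part of each in the Chrm1 to Chrm4 signals was not tested.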

How the data were processed

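Per the labels' protocols, RNA was extracted with Trizol and a column from ribosomes precipitated through the haemagglutinin tag and biotin-labelled with the Affymetrix WT Plus kit. The deposited table gives, as its range shows, 1 log2 signal per probe set and array, with medians of 5.80 and 5.81. How the authors corrected background, summarised probes and normalized the arrays is not given in the sources used here. Of the 34472 probe sets, the platform annotation names 1 gene for 23521, several for 1814 and none for 9137. Symbols were checked by gene identifier against RefSeq (GRCm38.p6), which changed 0. The sources name no genome build for the array.

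Python 3.11.15, pandas 2.3.3 and numpy 2.4.6 were used. Probe sets were called one by one, and gene lists by averaging the probe sets of a gene. Thresholds were percentiles within each array. The call rule was tested on simulated data only for genes set 1 log2 unit above or below the threshold, so calls nearer to it were not assessed. Alternatives were other thresholds, quantile normalization, each array alone and other handling of several probe sets. The members and lists were chosen with earlier results of these data known. Named genes were all members, the first 3 measured genes of each pathway or family list (the first 2 of each cell type list) and any gene on the other side of background from most of its pathway or family list. List genes that no probe set names alone were not analysed here. That the 2 arrays share 1 pool is taken from the labels, which do not say so outright.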

Additional observations from a re-analysis of the deposited data

How the results depend on the processing

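Over every alternative tried, 4 or 5 of the 6 muscarinic probe sets were above background, and the count was 4 only at the out-of-tissue threshold. There the lower Chrm1 probe set changed sides, at -0.20 log2 units on average. That threshold rests on few genes. Its mean over the arrays, 7.16, became 6.77 without Acta1 and 6.77 without Odf1, both left out after the data were seen. In each case the lower Chrm1 probe set then passed. Odf1 entered the threshold at 7.4975, the mean of probe sets at 4.98 and 10.015, which corresponds to neither reading. Chrm5 stayed under each threshold tried, and Chrm2, Chrm3, Chrm4 and the higher Chrm1 probe set stayed over each. Of the 89 measured pathway and family genes, 66 were above background, 48 at the 99th percentile and 44 at the out-of-tissue threshold. The shares of all named genes at these thresholds were 60.3%, 45.0% and 38.2%. Of the 89, 58 exceeded the median of all probe sets, while 68 were above background on array 2 alone and 70 on array 1 alone. No paired analysis was possible because the arrays form 1 group. Precision is limited by 2 technical arrays.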

Other observations

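A further probe set, 17465837, names Chrm2 together with the long noncoding RNA gene 9330158H04Rik, which overlaps it on the opposite strand, and was therefore no member. It read 5.34 on array 1 and 5.59 on array 2, under background on both, and it stood among minus-strand genes (10 of 10 neighbours), whereas Chrm2 is a plus-strand gene.

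Of the other genes that overlap the receptor genes in RefSeq, Mir490, Aven and Mdk had a probe set of their own, and Gm26861 (overlapping Chrm3) and Gm22676 (overlapping Chrm5) were not analysed here. For Chrm1 no overlapping gene was found in RefSeq. Mir490, a microRNA gene within Chrm2, read 3.62 and 3.17 and was not above background. Aven, an apoptosis regulator gene that overlaps Chrm5 on the opposite strand, read 6.82 and 6.49 and was above background, while Chrm5 at 4.86 and 5.02 was not. Mdk, the growth factor midkine gene that overlaps Chrm4, read 5.88 and 5.85, just over background.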
